A study of Mus musculus with 7 samples.

Results

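The genes described here encode RNA polymerase II (Pol II) and the general machinery that lets it start, escape and elongate, in sorted red cell precursors of the mouse fetal liver. Members were chosen by symbol, as genes whose name starts with Polr2, Gtf2, Supt, Ints or Ell, with Taf or Med followed by a digit, or is Tbp, Cdk7, Cdk9, Ccnh, Ccnt1, Ccnt2 or Mnat1. The rule names 116 protein-coding genes of the reference used for names. Of these, 91 had at least 1 coding exon in the deposited expression table, 90 reached a summed value of 1 in at least 1 stage and are the members, and 25 had no exon listed under a matched transcript, among them Polr2a, Polr2h, Polr2k, Ccnh, Taf1 and Supt3. The remaining gene, Ints2, had 0.812 in progenitors and 0.940 in erythroblasts and was not counted. The whole table gave 5194 genes.

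Livers at E13.5 of mouse development were used to map EKLF, a red cell transcription factor encoded by Klf1, by chromatin immunoprecipitation sequencing (ChIP-seq), and to sequence RNA. All samples, inputs included, came from hemagglutinin-Klf1 mice, whose Klf1 protein carries a hemagglutinin tag, and the antibody was raised against that tag, so no untagged or Klf1-null group was part of these comparisons. Sorting on the red cell antigen Ter119 and the transferrin receptor CD71 gave erythroid progenitors, a mix of Ter119-CD71- and Ter119-CD71+ cells, and erythroblasts (Ter119+CD71+). The 7 samples were 1 ChIP and 1 input library per stage, 1 progenitor RNA library and 2 erythroblast RNA libraries. The deposited values hold 1 RNA column and 1 pooled peak list per stage, so no difference between stages has a replicate check, and none carries a test.

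Pol II cannot find a promoter by itself. TFIID, built of the TATA-binding protein TBP and its associated factors (TAFs), TFIIA and TFIIB mark the start site, TFIIF brings in the polymerase, and TFIIE and TFIIH open the DNA, while Mediator passes signals from bound activators to the enzyme. Cdk7 in TFIIH and Cdk9 in P-TEFb then phosphorylate the polymerase tail, P-TEFb and ELL proteins release and speed up paused polymerase, Spt factors travel with it, and Integrator cleaves nascent RNA and ends unproductive transcription. EKLF activates red cell genes through CACCC-type promoter boxes, and earlier work reported contacts of its activation domain with the TFIIH subunit encoded by Gtf2h1 and a role of Taf9 beside it at beta-globin.

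Promoters of 5 members are printed first, to show what lies before the start sites of genes with EKLF peaks. Supt4a, Gtf2h5 and Med16 are 3 of the 4 members that differed at least 2-fold between the stages and had peaks in both lists (Cdk9 is described by its values), and Ccnt1 and Polr2l had the highest enrichments of all erythroblast peaks at members. Each run is the 250 bases before the annotated start (RefSeq, build GRCm38.p6), 5′ to 3′ on the gene's strand. Capitals mark matches of CCNCNCCC, a general form of the EKLF box in which N is any base, on either strand, with overlapping matches merged.
Supt4a: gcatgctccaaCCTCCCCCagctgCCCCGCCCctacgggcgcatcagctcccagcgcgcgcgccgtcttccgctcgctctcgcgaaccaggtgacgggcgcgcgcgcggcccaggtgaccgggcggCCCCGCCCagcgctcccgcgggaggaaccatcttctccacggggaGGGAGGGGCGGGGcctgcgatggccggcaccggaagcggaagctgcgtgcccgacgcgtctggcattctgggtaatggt
Gtf2h5: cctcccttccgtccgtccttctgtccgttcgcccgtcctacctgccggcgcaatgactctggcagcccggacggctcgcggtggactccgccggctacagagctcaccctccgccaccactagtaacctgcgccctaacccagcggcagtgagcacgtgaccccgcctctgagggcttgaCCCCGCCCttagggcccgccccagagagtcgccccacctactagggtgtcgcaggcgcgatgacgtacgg
Med16: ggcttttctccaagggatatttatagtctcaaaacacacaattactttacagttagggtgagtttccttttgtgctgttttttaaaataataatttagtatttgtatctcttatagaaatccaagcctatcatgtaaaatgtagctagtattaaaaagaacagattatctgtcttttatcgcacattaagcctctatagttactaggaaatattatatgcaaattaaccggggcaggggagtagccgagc
Ccnt1: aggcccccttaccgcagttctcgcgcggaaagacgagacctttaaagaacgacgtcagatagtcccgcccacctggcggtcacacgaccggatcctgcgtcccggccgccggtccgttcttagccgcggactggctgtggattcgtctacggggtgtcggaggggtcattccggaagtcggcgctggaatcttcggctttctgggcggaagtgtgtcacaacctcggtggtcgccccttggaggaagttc
Polr2l: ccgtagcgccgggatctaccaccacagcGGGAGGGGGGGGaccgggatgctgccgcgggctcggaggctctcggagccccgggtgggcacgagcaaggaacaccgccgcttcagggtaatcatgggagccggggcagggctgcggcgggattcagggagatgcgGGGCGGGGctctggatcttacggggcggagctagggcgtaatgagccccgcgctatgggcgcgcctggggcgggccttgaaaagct

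These windows lie at chr11:87737301-87737550 (plus strand) for Supt4a, chr17:6079578-6079827 (plus) for Gtf2h5, chr10:79908939-79909188 (minus) for Med16, chr15:98567737-98567986 (minus) for Ccnt1 and chr7:141475154-141475403 (minus) for Polr2l. The peaks are in build mm9, so whether a peak covers a given window was not determined. Supt4a held 5 matches, the nearest beginning 74 bases before the start. Polr2l held 3 matches, all on the opposite strand, and Gtf2h5 held 1, which begins 70 bases before the start. Med16 and Ccnt1 held no match. The Med16 window was 33.2% G and C, against 74.4% at Supt4a. No match says only that these letters are not in this window.

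Across the members 77 genes had promoters in the RefSeq table, 91 in all because some genes have more than 1 start. CCNCNCCC was in 50 of these 91 promoters (54.9%), against 45.9% of all 32851 promoters of the table and 63.9% of the 5401 promoters of genes in the expression table. Among member promoters it was in 30 of 50 at genes with an erythroblast peak (60.0%) and in 20 of 41 at genes without (48.8%). The stricter box CCACACCC was in none of the 91, against 3.2% of the table. The promoters with the most matches of the general form were at Taf5l (11) and Taf4 (9), and neither gene had a peak in either list.

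RNA is compared as the summed coverage of a gene's listed coding exons, and a difference is log2((erythroblasts + 1) / (progenitors + 1)). A gene is said to have risen or fallen only where this differed at least 2-fold. Coverage was not divided by exon length, so levels are compared between stages for the same gene and not between genes. The table lists only exons at or above 0.8 in both stages, so a gene silent in either stage is missing and a change of an unlisted exon is not seen. In sorted bulk cells, a smaller share of cells that express a gene and less RNA per cell cannot be told apart.

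Most of the machinery did not pass the 2-fold rule. Of 90 members 8 rose (8.89%), 8 fell (8.89%) and 74 did neither. Over all genes 15.3% rose and 13.2% fell, so in these libraries 17.8% of members and 28.5% of all genes passed in either direction, a difference for which the design holds no test. By a 1.5-fold rule 31.1% of members were lower in erythroblasts, above the 24.3% of all genes, so for falls the order of members and background turned. The median difference of members was -0.11, with the middle 50% from -0.66 to 0.48, against 0.03 over all genes. Lower in erythroblasts by any amount were 48 members (53.3%) and 48.8% of all genes. Within 1.5-fold lay 46 members (51.1%) and 48.6% of all genes. Of the 16 members past the rule 8 rested on 1 listed exon, and 26 members had 1 exon in all (30.1% of all 1-exon genes passed). With at least 2 listed exons 3 members of 64 rose and 5 fell, and with at least 5 exons 1 of 26 rose and 2 fell, against 25.9% of all such genes past the rule in either direction.

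**Figure D1:**
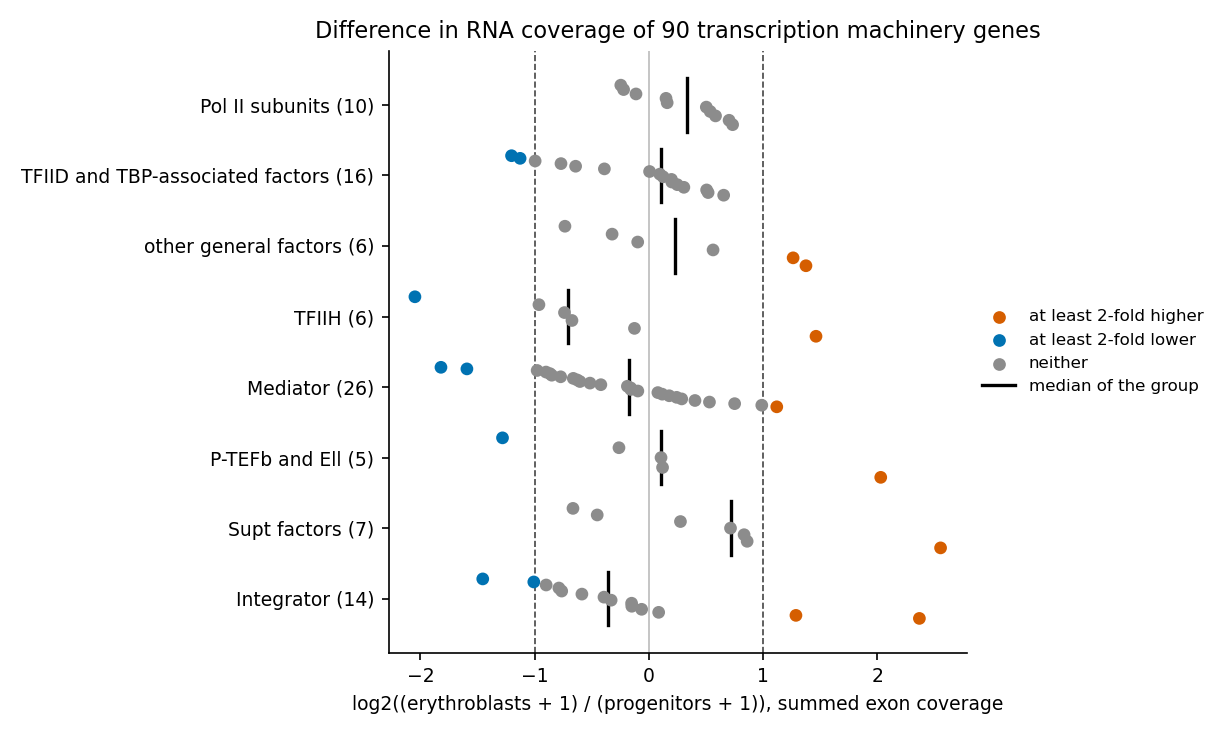
Difference in summed exon coverage for each of the 90 members, by role, on the log2 scale with 1 added to both stages. Each point is 1 gene, black bars are group medians, and dashed lines mark 2-fold. The 10 Pol II subunits all lie between the dashed lines, which 28.5% of all genes passed. Below 0 lie 11 of 14 Integrator genes, against 48.8% of all genes.

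**Figure D2:**
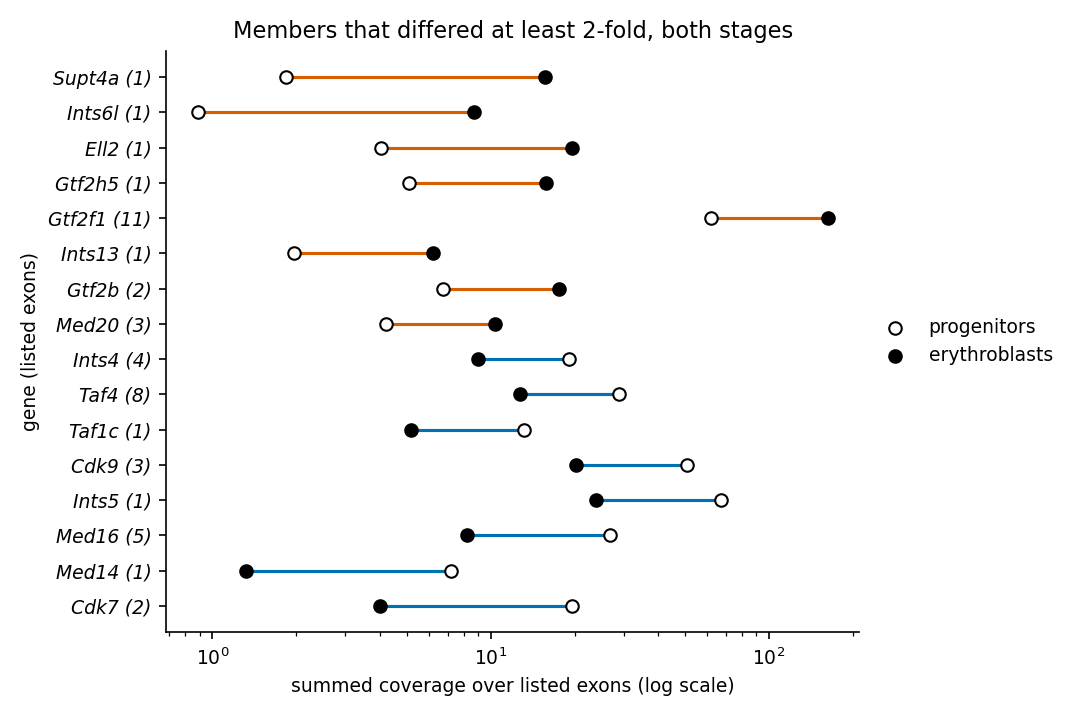
Summed coverage in progenitors (open) and erythroblasts (filled) of the 16 members past the 2-fold rule, on a log axis, with the number of listed exons after each name. The top 8 rose and the lower 8 fell. Gtf2f1 and Ints5 start from the highest progenitor values of the 2 sets, 62.0 and 67.4.

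None of the 10 listed Pol II subunit genes passed the rule, and 7 of them were higher in erythroblasts. The differences ran from -0.25 (Polr2m) to 0.73 (Polr2i), with a median of 0.33. Polr2i, a small subunit that helps the enzyme keep fidelity, had 12.6 in progenitors and 21.5 in erythroblasts, and all 5 of its exons were higher in erythroblasts. Polr2b, which encodes the second largest subunit, had 9.01 and 13.2, but its 4 exons ran from -1.12 to 1.45. Polr2m, whose product makes Pol II depend on Mediator to start, had 97.0 and 81.7 over 4 exons. Polr2e, Polr2f and Polr2l encode subunits that Pol I and Pol III also use. They had 27.4 and 30.7, 7.97 and 12.4, and 5.42 and 8.31. The other subunit genes were Polr2c (-0.11), Polr2d (0.70), Polr2g (-0.22) and Polr2j (0.15). The SD over its genes was 0.38, against 0.85 over all members and 1.04 over all genes. Whether so small a group differs from these was not tested. The catalytic subunit gene Polr2a had no exon under a matched transcript and was not analysed here.

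Most TFIID genes did not pass either. Of 16 listed genes for TBP and Taf-named proteins 2 fell (12.5%, against 13.2% of all genes) and none rose (15.3% of all genes did). The median was 0.11. Tbp itself had 25.9 in progenitors and 14.8 in erythroblasts on 1 exon, a difference of -0.77. Taf4, a scaffold of TFIID, fell from 28.9 to 12.7, a difference of -1.13. Its 8 exons were not uniform, since 3 were slightly higher in erythroblasts and the largest exon drop was -1.87, and the median of the exon differences was -0.51. Taf1c, the other fall, encodes a subunit of the Pol I factor SL1 and not of TFIID. It went from 13.2 to 5.15 on 1 exon. Taf2 had 21.2 and 13.2 (-0.64). Taf6 (50.2 and 54.8), Taf10 (44.1 and 52.6), Taf8 (12.4 and 15.6), Taf12 (10.6 and 12.4), Taf11 (4.06 and 4.41), Taf3 (9.28 and 9.32) and Taf7 (3.84 and 4.55) differed by 0.01 to 0.31. All but Taf7 carry histone folds, by which TAFs pair with one another. Taf9, which also serves the coactivator complex SAGA, had 14.2 and 20.6. Taf6l, a SAGA relative of Taf6, was just outside the rule with 4.53 and 1.78, a 1.99-fold fall on 1 exon. Taf5l, the relative of Taf5 in the same complex, had 47.5 and 36.0. Taf15, an RNA-binding protein of the FET family, had 16.4 and 26.4.

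Among the factors that place the polymerase, the genes for TFIIB and the large TFIIF subunit rose. Gtf2f1, which encodes the latter, went from 62.0 to 162, a difference of 1.38, and all 11 of its listed exons were higher in erythroblasts, by 0.77 to 1.73. It was the best covered change of the set, with an exon SD of 0.35. Gtf2b, which encodes TFIIB, went from 6.76 to 17.6 (1.26), with exons at 0.89 and 1.33. TFIIA and TFIIE genes moved less. Gtf2a1 had 11.1 and 10.3, Gtf2a2 had 1.04 and 2.01 and Gtf2e1 had 1.96 and 1.37, the latter pair near the lowest values the table holds. Gtf2i, a signal-responsive factor of the TFII-I family and no part of the core complex, had 35.6 and 21.0 (-0.73), lower in 8 of 9 exons.

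TFIIH was the role group with the lowest median, -0.71 over only 6 genes. Of these 5 were lower in erythroblasts (83.3%, against 48.8% of all genes, with no test), 1 of them past the rule. Cdk7, the TFIIH kinase, fell from 19.6 to 3.99, a difference of -2.05 and the largest fall of all members with a pseudocount of 1 (with 0.1 it was -2.27 and Med14 -2.36). Both of its listed exons were lower, from 7.36 to 2.04 and from 12.3 to 1.95. Mnat1, which assembles Cdk7 with its cyclin, had 7.02 and 4.03 (-0.67). The cyclin gene Ccnh was not listed. Of the TFIIH core, Gtf2h3 had 11.7 and 5.51 (-0.96), Gtf2h4 had 4.11 and 2.06 (-0.74) and Gtf2h1 had 14.7 and 13.4 (-0.13, with 4 of 7 exons higher). Gtf2h5, the smallest TFIIH subunit, which stabilises the complex for DNA repair, rose from 5.07 to 15.7 on 1 exon (1.46). The helicase gene Ercc3, from a list of partners that the symbol rule leaves out, had 7.76 and 6.63.

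Of 26 Mediator genes 2 fell (7.69%, against 13.2% of all genes), 1 rose (3.85%, against 15.3%) and 23 did neither. Lower in erythroblasts by any amount were 16 (61.5%, against 48.8% of all genes, with no test), and the median was -0.17. Med14, the backbone that joins the modules, fell from 7.18 to 1.32 on a single exon (-1.82). Med16, of the tail that meets activators, fell from 26.8 to 8.20 (-1.59), and all 5 exons were lower, by -0.13 to -1.69. Other genes of the tail did not pass the rule. Med25 had 123 and 77.2, Med15 had 88.8 and 61.8, Med24 had 87.1 and 64.8 and Med23 had 11.2 and 9.70. Med27, Med28, Med29 and Med30, which lie next to the tail or are counted with it, had differences of -0.16, 0.53, 0.40 and 0.12, and both module groupings used here were made after the values were seen. Med1, the subunit known to meet GATA1 in red cells, had 46.2 and 24.9 (-0.87) on 1 exon. Med26, which contacts elongation factors, had 10.7 and 4.94, a 1.97-fold fall just outside the rule. None of the 3 listed members of the kinase module passed the rule. Med12 had 68.8 and 45.0 (-0.60), with 12 of 16 exons lower, while Med13l had 36.9 and 74.2 (0.99), with 15 of 16 exons higher and 1.98-fold in sum, and Med13 had 4.95 and 9.01. The module's kinase gene Cdk8, from the list of partners, rose from 10.96 to 23.4, and its paralog Cdk19 had 5.36 and 4.71. Med20, a head subunit, rose from 4.21 to 10.3 (1.12) with 3 of 3 exons higher, but its exon median was 0.77. The remaining head and middle genes ran from -0.90 (Med11) to 0.29 (Med31).

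**Figure D3:**
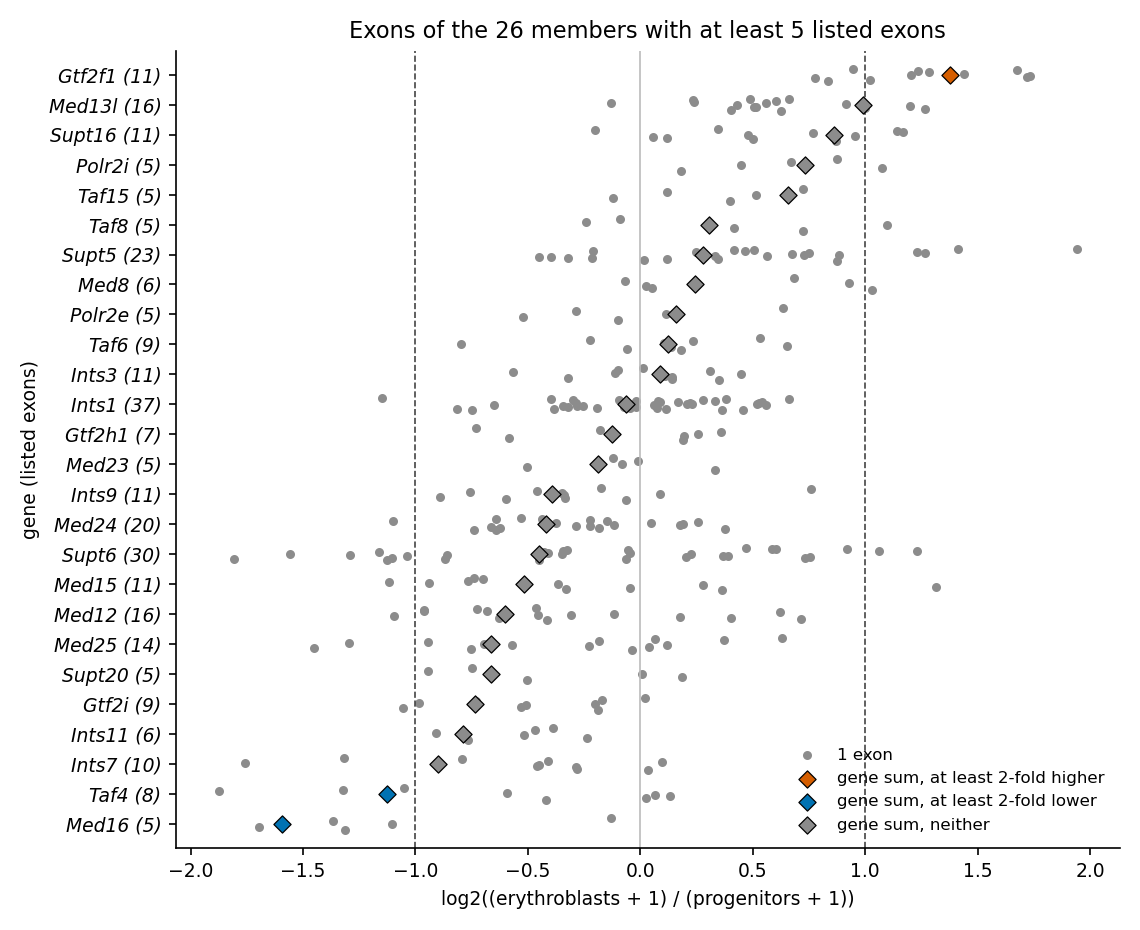
Differences of single exons (grey) and of the exon sum (diamonds) for the 26 members with at least 5 listed exons, on the log2 scale, with dashed lines at 2-fold. All 11 Gtf2f1 exons lie above 0 and all 5 Med16 exons below it, while the 30 exons of Supt6 spread from -1.81 to 1.23. Exons of 1 gene share their libraries and are not replicates.

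Of the 5 genes of P-TEFb and the Ell family 1 rose and 1 fell, and of the 7 Supt genes 1 rose and none fell. Most of these genes did not pass the rule, but neither did most genes of any kind, since 28.5% of all genes passed. Whether these small groups differ from that share was not tested. Ell2, an elongation factor that boosts processive transcription, rose from 4.04 to 19.6 on 1 exon (2.03), and its paralog Ell had 20.6 and 22.3. Cdk9, the P-TEFb kinase, fell from 50.8 to 20.3 (-1.28). That fall rested on 1 of its 3 listed exons, which went from 47.0 to 17.4, while the others had 1.77 and 1.80, and 2.03 and 1.08, and the median exon difference was -0.54. The genes of its cyclin partners did not pass the rule. Ccnt1 had 32.8 and 27.2, and Ccnt2 had 59.0 and 64.2. Supt4a, a subunit of the pausing and elongation factor DSIF, rose from 1.83 to 15.6 on 1 exon (2.55), the largest rise of all members with a pseudocount of 1, though with 0.1 it was 3.03 and Ints6l 3.16. Its near-identical copy Supt4b had 26.3 and 47.7, also on 1 exon, and reads of the pair could have been divided between them in counting. Supt5, the other DSIF subunit, had 215 and 260 (0.28), with 18 of 23 exons higher. Supt6, a histone chaperone that travels with Pol II, had 169 and 123 (-0.45). Its 30 exons ran both ways, 12 higher and 18 lower. Supt16, of the histone chaperone FACT, had 33.0 and 60.7 (0.86), higher in 10 of 11 exons, and its partner Ssrp1 had 234 and 195. The SAGA genes Supt20 and Supt7l had 11.5 and 6.91, and 7.31 and 12.6.

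Integrator genes were lower in erythroblasts in 11 of 14 cases (78.6%, against 48.8% of all genes, with no test), with a median of -0.36. By the rule 2 fell and 2 rose (14.3% each, against 13.2 and 15.3% of all genes). Ints5 fell from 67.4 to 24.0 on 1 exon (-1.45). Ints4, which belongs to the cleavage module with Ints11, fell just inside the rule from 19.1 to 9.02 (2.01-fold, all 4 exons lower). Ints11, the RNA endonuclease, had 13.6 and 7.48 (-0.79, all 6 exons lower). Ints9, its catalytically inactive partner, had 40.1 and 30.3 (-0.39, 9 of 11 exons lower). Ints7 had 34.4 and 18.0 (-0.90, 8 of 10 exons lower). Ints1, which had the most listed exons of the complex, had 133 and 127 over 37 exons (-0.06). Ints3, with 11 exons like Ints9, had 34.3 and 36.5 (0.09). Ints6l rose from 0.885 to 8.74 (2.37) and Ints13 from 1.96 to 6.22 (1.29), each on 1 exon. The progenitor value of Ints6l was close to the lowest the table holds. Its paralog Ints6 had 5.0 and 4.41. Ints8, Ints10, Ints12 and Ints14 had differences of -0.59, -0.76, -0.33 and -0.15.

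Genes of the pathway that the symbol rule leaves out were read from lists of other elongation factors, Pol I and III subunits, and Pol II assembly factors and tail phosphatases. Over all genes 15.3% rose and 13.2% fell, and whether these short lists differ from that was not tested. Of 24 listed elongation and 7SK genes 5 rose (20.8%), 1 fell (4.17%) and 18 did neither (median 0.17). Mllt3 (6.87 to 78.9) and Aff1 (21.2 to 57.5), which encode parts of the super elongation complex, rose, and so did Eaf1 (28.4 to 80.7), which encodes an ELL partner. Their relatives in that complex, Mllt1 (11.8 and 7.41) and Aff4 (9.32 and 14.5), did not pass the rule. Paf1 (17.3 to 48.7) and Ctr9 of the Paf1 complex were the other 2. Ccnk, the cyclin of the tail kinases Cdk12 and Cdk13, fell from 225 to 90.2. Of 11 listed Pol I and III subunit genes 3 fell (27.3%) and 1 rose (9.09%), with a median of -0.39. Polr1b fell from 14.3 to 0.840 on 1 exon. Polr1a fell from 28.1 to 11.6 over 7 exons. Of 7 assembly and phosphatase genes 2 fell (28.6%), Ssu72 (24.5 to 9.21) and Rpap1 (37.7 to 14.7), and 1 rose (14.3%), Gpn3 (3.43 to 11.1).

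EKLF peaks were counted at a gene where one overlapped the span of its listed exon starts or lay within 5 kb of it. Enrichment (a fold over background) and -log10 p are the authors' values for each peak, read within 1 list only. By that window 47 members (52.2%, 95% Wilson interval 42.0 to 62.2%, counting error only) had an erythroblast peak and 28 (31.1%, 22.5 to 41.3%) a progenitor peak, against 46.5 and 30.9% of all genes. Both lists had a peak at 24 members, the erythroblast list alone at 23, the progenitor list alone at 4 and neither at 39. Over all genes these shares were 27.1, 19.4, 3.79 and 49.7%, against 26.7, 25.6, 4.44 and 43.3% of members. Within 1 kb the erythroblast share was 25.6% of members and 30.8% of all genes, so the order of members and background turned with the window. The erythroblast list is the longer, with 19353 peaks against 7358. Of the members with at least 5 listed exons 14 of 26 had an erythroblast peak, against 58.1% of all such genes. A progenitor peak lay at 5 of these 26 members (19.23%, Wilson interval 8.51 to 37.88%), against 37.98% of all such genes. The same 5 had peaks in both lists, against 33.75% of all such genes. For progenitor peaks these well-covered members thus lay below the background, a difference that was not tested. When each list was cut to its top 3679 peaks by -log10 p, 12 members (13.3%) had an erythroblast peak and 19 (21.1%) a progenitor peak, near the 14.3 and 18.5% of all genes.

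**Figure D4:**
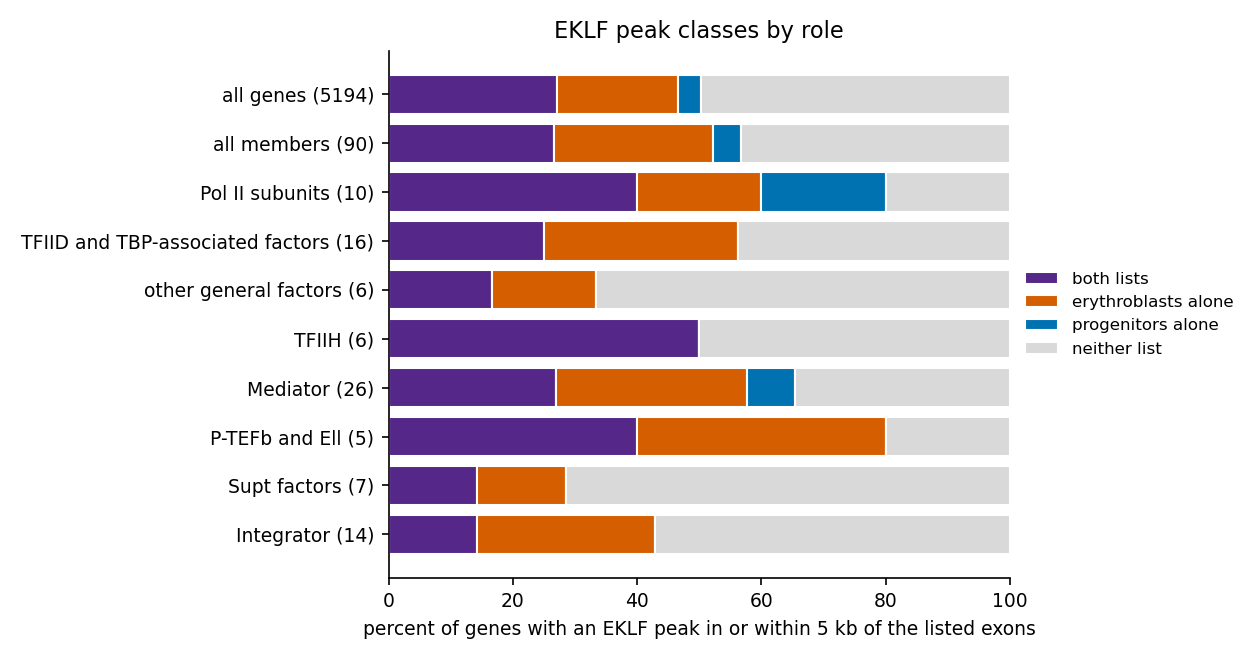
Percent of genes with EKLF peaks in both lists, in 1 list alone or in neither, in or within 5 kb of the listed exons, for all genes, all members and each role (number of genes in parentheses). Of 10 Pol II subunit genes 8 had a peak in at least 1 list, and of 7 Supt genes 2. The shares with neither were 20% (Wilson interval 5.67 to 51.0%) and 71.4% (35.9 to 91.8%). Both intervals hold the 49.7% of all genes with neither, and no role was tested against another.

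The 5 highest-ranked erythroblast peaks at members lay at genes that did not pass the RNA rule, but neither did 74 of the 90 members. Of the 24 members with peaks in both lists 20 did not pass. Whether the rank of a peak goes with the RNA difference was not tested. In the erythroblast list, ranked by -log10 p, Ints6 came first at members (rank 928, enrichment 13.3, chr14:63378101-63381129 in build mm9, as for all peaks here) with a peak over the start position of its 5′-most listed exon. Taf9 followed (rank 1179, enrichment 20.2, chr13:101420531-101422224), then Gtf2h1 (rank 1427, enrichment 20.4, chr7:54050483-54052093), Polr2l (rank 1474, enrichment 21.5, chr7:148660083-148662487) and Ccnt1 (rank 1528, enrichment 24.0, chr15:98397084-98399223). Each overlapped a progenitor peak. In the progenitor list Ints6 was again first at members (rank 104, enrichment 9.39), followed by Cdk9 (rank 229), Med26 (rank 322), Ccnt1 (rank 403) and Gtf2h1 (rank 611). Taf9 and Gtf2h1, named above for reported links to EKLF, thus had peaks in both lists, 2.78 and 4.96 kb upstream of their 5′-most listed exons in erythroblasts. Peaks in this window may also lie at the start of a neighbouring gene, and which gene a peak serves was not tested.

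The erythroblast-only peaks of highest rank at members were at Polr2e (chr10:79501466-79503305, enrichment 18.9), Polr2b (chr5:77737930-77740221, 12.0), Ints14 (chr9:64807552-64809813, 15.6), Supt5 (chr7:29122458-29124533, 13.6) and Taf10 (chr7:112892247-112893944, 15.7). The Supt5 and Taf10 peaks covered the start position of the 5′-most listed exon. Supt5 had a further erythroblast peak beyond its 3′-most listed exon, at chr7:29096093-29097735. The 4 members with a progenitor peak alone were Polr2d, Med31, Med10 and Polr2m, with enrichments of 12.6, 5.84, 6.96 and 4.70. Med25 had a peak in each list, but these did not overlap: the progenitor peak (chr7:52146786-52148453) covered the start position of the 5′-most listed exon and the erythroblast peak (chr7:52139033-52141108) lay inside the gene.

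Most peak centres at members, but not all, lay upstream of the 5′-most listed exon. Positions were not counted for the peaks at all genes, so this may not be particular to members. Of 49 erythroblast peaks at members 38 had their centre upstream of the 5′-most listed coding exon and 22 lay within 1 kb of that exon, and of 28 progenitor peaks 21 and 15 did. First exons are often unlisted, so distances are to the 5′-most listed exon and not to the start site. Median enrichment at members was 13.2 in the erythroblast list and 7.98 in the progenitor list, against 11.4 and 7.70 for the peaks at all genes of the table and 9.31 and 7.03 over the whole lists. Of the 28 progenitor peaks 23 (82.1%) overlapped an erythroblast peak, and of the 49 erythroblast peaks 24 (49.0%) overlapped a progenitor peak. For the peaks at all genes of the table these shares were 85.4 and 50.8%, so the members' shares lay near the background.

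**Figure D5:**
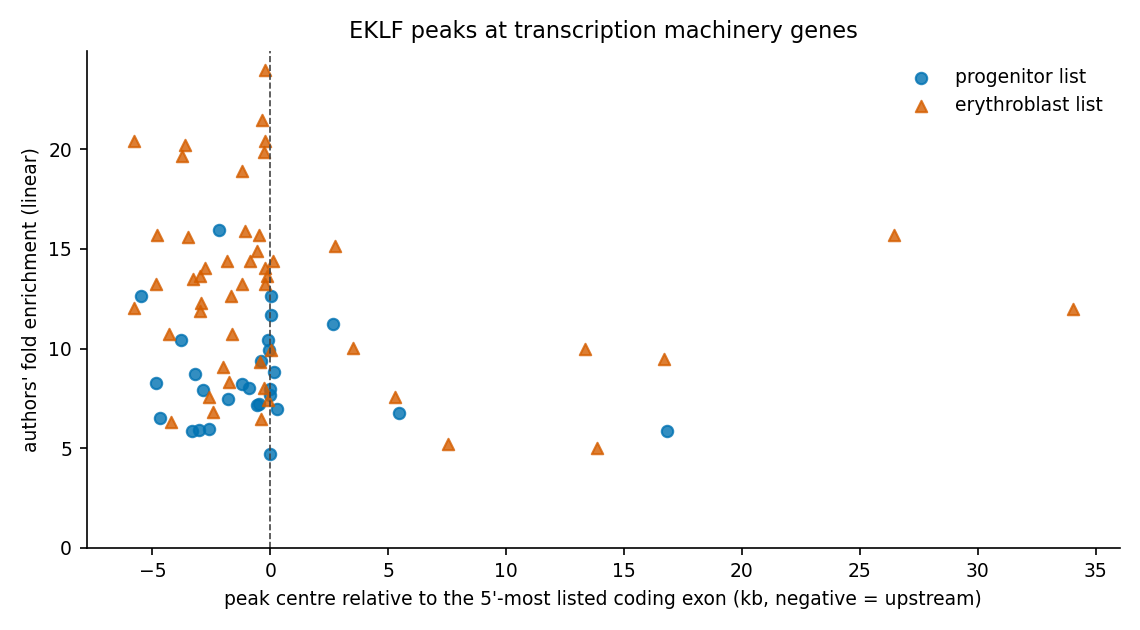
Authors' fold enrichment of the 28 progenitor and 49 erythroblast peaks at members against the distance of the peak centre from the 5′-most listed coding exon (kb, negative upstream). Most points lie between the exon and 5 kb upstream of it, and the highest, at Ccnt1 in erythroblasts, has an enrichment of 24.0. Enrichments are compared within 1 list only.

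RNA changes occurred with and without peaks. Of the 24 members with peaks in both lists 4 passed the 2-fold rule (27.9% of all genes in that class did), namely Supt4a and Gtf2h5, which rose, and Cdk9 and Med16, which fell. Of the 23 with an erythroblast peak alone 3 passed (27.3% of all such genes), as Gtf2f1 and Med20 rose and Ints5 fell. Of the 39 with neither 9 passed (29.4% of all such genes), among them Cdk7, Med14, Ell2 and Gtf2b. None of the 4 with a progenitor peak alone passed (25.9% of all such genes). The median difference was -0.14 with peaks in both lists, 0.12 with an erythroblast peak alone and -0.22 with neither. At Supt4a the erythroblast peak (chr11:87550341-87551836, enrichment 14.9) covered the start position of the listed exon that rose, and the progenitor peak (chr11:87549850-87551688, enrichment 8.0) did so too. At Cdk9 the peaks (chr2:32567043-32570140 in erythroblasts, enrichment 13.49, and chr2:32566943-32570073 in progenitors, 8.70) lay 1.75 and 1.65 kb upstream of the 5′-most listed exon. At Gtf2f1 the erythroblast peak (chr17:57136228-57137859, enrichment 10.0) lay 12.5 kb from the 5′-most listed exon, beyond the 3′-most listed exon, and it overlapped a progenitor peak that ends outside the window.

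Of 8 erythroid markers 5 were listed and 3 of them rose, namely Tfrc, Gata1 (42.1 to 2845) and Hba-a1/Hba-a2 (159 to 4043). Klf1 (0.96) and Epor (0.27) did not pass the rule. Tfrc, which encodes CD71, had 21.3 in progenitors and 148 in erythroblasts. Klf1 had 73.9 and 145, and its product was tagged in both stages. No exon was listed for the fixed markers of progenitors (Kit, Gata2, Myb and Cd34), macrophages, hepatocytes, granulocytes, B cells or endothelium, and 1 megakaryocyte marker was listed (Gp1ba, 9.35 and 31.6). A missing gene may lie below 0.8 in either stage, so these lists do not measure other cells. The listed exons summed to 312559 in progenitors and 333353 in erythroblasts.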

How the data were processed

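RNA and ChIP libraries of 2 stages were used through 3 deposited tables. Per the labels, RNA was read in pairs of 51 bp and ChIP fragments of about 200 bp were selected. The submitters' processing notes name build mm9, with aligner, read counter and peak caller not given in the sources used here. Expression values deposited under the name RPKM behave as a coverage signal, since all are whole multiples (within 0.01) of 1 step per column, with 1835 and 2151 steps per unit. Each is the authors' value and carries no SD or n. Whether the erythroblast column pools both of its libraries could not be settled. In the deposited pooled peak lists the fold enrichment and the -log10 p are the authors' values, recognised by their range (never below 2.14 and 5).

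Transcripts were matched to symbols of the GRCm38.p6 RefSeq table (6772 of 6853). The exons of the transcript with the most listed exons were summed, and genes with at least 1 in 1 stage were kept. The planned limma fit needed a column per library, so the 2-fold rule planned for that case was used. Members and lists were chosen with earlier results of these data known. Values are given for members past the rule, next to it, core genes and the extremes of each role, and peaks for the 5 highest-ranked. Shares have Wilson 95% intervals. Steps were tested on simulated data. Alternatives were other pseudocounts, filters, scalings, exon summaries, folds, windows and peak ranks. Computation used scipy 1.17.1 for intervals, with pandas 2.3.3 and numpy 2.4.6.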

Additional observations from a re-analysis of the deposited data

How the results depend on the processing

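No paired analysis was possible because the deposited table has 1 column per stage, and for the same reason no replicate could be left out. The 8 rises and 8 falls became 9 and 14 with a pseudocount of 0.1 and 5 and 4 with a pseudocount of 5. With 0.1, 10.0% of members rose and 15.6% fell, against 18.1 and 15.6% of all genes. For falls, members then matched all genes. With 5, the shares were 5.56 and 4.44%, against 9.88 and 7.91%. By a 1.5-fold rule 16 rose and 28 fell, 17.8 and 31.1% of members, against 27.1 and 24.3% of all genes. The rises and falls became 3 and 5 with at least 2 listed exons and 1 and 2 with at least 5, alternatives chosen after seeing the data. With at least 2 exons these were 4.69 and 7.81% of such members, against 15.4 and 12.4% of such genes. With at least 5 they were 3.85 and 7.69%, against 14.0 and 11.9%. With a pseudocount of 5, Gtf2b, Ints13, Ints4, Med14, Med20, Taf1c and Taf4 no longer passed, and by the median of exon differences Cdk9, Ints4, Med20 and Taf4 did not. That summary moved the members' median from -0.11 to -0.0021 and Ccnt1 from -0.26 to 0.02. Both scalings kept all 16 calls and added Med26 and Taf6l to the falls, and removing globins added Gtf2h3 as well, giving 10 and 11 falls. These were 11.1 and 12.2% of members, against 13.9 and 14.5% of all genes. None of the 16 members past the rule changed sign, but a pseudocount, filter or fold rule cannot change a sign. For members with 1 listed exon the exon median equals the exon sum. The scalings changed the erythroblast column by only -0.03 and -0.06 on the log2 scale. The kept signs therefore say little about robustness. All genes were rerun under these alternatives, but single genes outside the members were not followed. The counts with an erythroblast peak, a progenitor peak, both and an erythroblast peak alone (47, 28, 24 and 23) became 23, 15, 11 and 12 within 1 kb and 80, 69, 66 and 14 within 50 kb. With the higher-ranked 50% of each list the counts with an erythroblast peak, both and an erythroblast peak alone became 29, 15 and 14, and with equal numbers of top peaks 12, 8 and 4. Among genes with at least 5 exons they were 14, 5, 5 and 9 of 26 members. For a progenitor peak that was 19.23%, against 37.98% of all such genes. Within 1 kb, 2 members with peaks in both lists passed the 2-fold rule, against 4 within 5 kb. In the 100 bases before the start 36 member promoters (39.6%) held CCNCNCCC, against 50 in 250 bases. For 100 bases the share was 31.4% of all promoters and 46.3% of promoters of listed genes.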

Other observations

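Some long genes showed exons that moved apart within 1 transcript. In Supt6 the exon with the largest fall (start at 78022354 on chromosome 11) went from 19.9 to 4.97, while an exon starting at 78040393 went from 2.94 to 8.25. In Supt5 the 2 exons nearest the 5′ end of the gene, starting at 29116389 and 29123371 on chromosome 7, went from 3.23 to 15.2 and from 1.62 to 5.98, although the gene sum differed by only 0.28. In Ints1 the 5′-most listed exon, whose start position lies under an erythroblast peak, went from 4.15 to 1.32 (-1.15), the lowest difference of its 37 exons. The start position of the 5′-most listed Supt5 exon, which was higher in erythroblasts (1.41), also lies under an erythroblast peak. Of the 26 members with at least 5 listed exons 4 (15.4%) had all exons on the same side of 0, against 28.5% of the 1677 such genes in the table. The shares were not matched for exon number, whose median was 9.5 in these members and 7 in all such genes. These are values of 1 column per stage, and whether other transcripts of these genes contribute was not tested.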
